A study of Mus musculus with 35 samples.

Results

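Testes of unexposed mice that carry 1 mutant copy of Akt1 were compared with testes of unexposed wild-type mice at postnatal day 25. The comparison takes the 3 arrays titled as heterozygous and the 3 titled as wild type among the day 25 arrays without drug exposure, 6 of 35 arrays in the series and 6 of 17 at that age. Each gene was read from its brightest probe set among those with 1 gene symbol. All mice were C57BL6 males, so both groups share strain, sex, age and the absence of drug, and differ in genotype as labelled. The series as a whole crosses Akt1 genotype (heterozygous, homozygous mutant and wild type) with propylthiouracil (PTU), which blocks thyroid hormone synthesis, at postnatal days 15 and 25, and its title names the blood-testis barrier. Every array stands for its own mouse in the study design, 1 chip was left out by the authors for quality so that the PTU-exposed homozygous group has 2 arrays, and no label names litters. Which stretch of Akt1 the mutant allele lacks is also not given there, so a probe set may lie outside it.

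Akt1 encodes a protein kinase that acts below phosphoinositide 3-kinase (PI3K) and phosphorylates regulators of growth, glucose use and cell survival. In the juvenile mouse the first wave of germ cells advances nearly in step, from spermatogonia through meiosis to round and then elongating spermatids, so each age adds a later stage. In elongating spermatids histones give way to transition proteins and then to protamines, which pack the sperm nucleus. Sertoli cells nurse the germ cells and form the blood-testis barrier, Leydig cells make androgen and peritubular cells line the tubule. These were whole testes, and the arrays read relative amounts of RNA. A lower reading from fewer cells of a type, less RNA per cell or more RNA from other cells cannot be told apart.

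The 6 arrays resembled each other, with correlations across genes of 0.989 to 0.994 within the heterozygous group, 0.993 to 0.996 within the wild-type group and 0.964 to 0.993 between them. Defining markers of germ, Sertoli, Leydig, peritubular, macrophage and endothelial cells were all above the filter value of 4.76 log2 units in every one of the 6 arrays, with the lowest reading, 5.07, for the endothelial gene Pecam1. The epididymal transcript Spink8 read 5.94 to 6.40 in these arrays, whereas it exceeded 8 log2 units in 4 of the exposed arrays. The fat markers stood higher in part of the heterozygous group: Adipoq read 7.03, 8.10 and 8.50 in heterozygous testes 1, 2 and 3, against 6.92, 6.64 and 6.45 in wild-type testes 1, 2 and 3 (log2 difference 1.20 ± 0.48, adjusted p = 0.0869). Car3 read 4.31, 6.10 and 7.45 in heterozygous testes and 4.19, 4.66 and 4.68 in wild-type testes. The mean of 12 poly-A control probe sets, which detect bacterial control RNAs and no mouse gene, was 6.55, 6.40 and 7.25 on the heterozygous arrays and 7.98, 7.88 and 8.20 on the wild-type arrays, with no overlap between the genotypes.

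The heterozygous testes had a large set of raised transcripts led by spermatid genes and a larger set of slightly reduced ones. Of 16305 genes tested, 3680 differed from wild type (22.6%) at an adjusted p under 0.05 in limma (5863, 36%, at an unadjusted p under 0.05), 1356 of them higher (8.32%) and 2324 lower (14.3%). The rises were the larger changes. Their median log2 difference was 0.78, 488 of them reached 1 log2 unit and 87 reached 2, whereas the median of the reduced genes was -0.43 and only 4 fell by 1 log2 unit or more. The median over all genes tested was -0.03. In 95.4% of the called genes the 3 heterozygous arrays did not overlap the 3 wild-type arrays, a share that the calls themselves favour. Over all genes tested the heterozygous arrays lay wholly above the wild-type arrays in 18% and wholly below them in 25.7%. The groups were uneven inside: heterozygous testis 1 was the lowest of its group in 1155 of the 1356 raised genes, and wild-type testis 1 was the highest of its group in 881. Leaving out heterozygous testis 2 gave 1503 calls, leaving out heterozygous testis 3 gave 2398 and leaving out wild-type testis 3 gave 1433. With the poly-A control mean as a covariate 13 genes passed, 2 higher and 11 lower, so how far that difference between arrays takes part in the calls cannot be told apart from genotype.

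**Figure D1:**
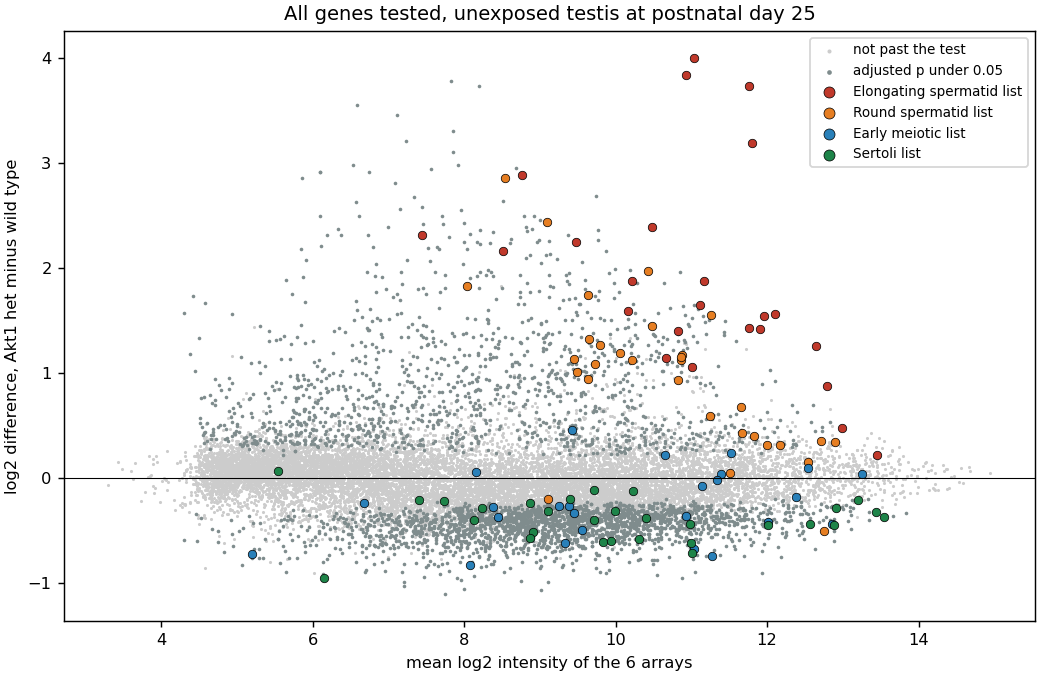
Each point is 1 of the 16305 genes tested, with the mean log2 intensity of the 6 arrays on the horizontal axis and the log2 difference, Akt1 heterozygous minus wild type, on the vertical axis. Light grey points did not pass the test, dark grey points had an adjusted p under 0.05, and coloured points belong to 4 cell lists. The rises reach 4.003 for Prm2 and the falls -1.10 for Hs6st2, with members of the elongating and round spermatid lists (red and orange) among the highest points.

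Genes of elongating spermatids rose together. Of 24 list members tested, 19 rose, none fell and 5 did not pass, beside 8.32% of all genes higher. All 24 values lay above 0, with a median of 1.62 log2 units against -0.03 over all genes. Averaged over the list, heterozygous testes 1, 2 and 3 read 11.25, 12.31 and 12.44, against 10.87, 9.79 and 9.58 in wild-type testes 1, 2 and 3. Testis 1 of each genotype thus lay nearest to the other genotype, and the groups did not overlap. The count was 12 without heterozygous testis 2, 13 without heterozygous testis 3 and 11 without wild-type testis 3. With the poly-A control mean as a covariate none of the 24 passed, 23 lay above 0 and the median was 1.08.

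The 4 genes of the histone-to-protamine exchange were among the largest changes. Prm2, a protamine, read 11.81, 13.41 and 13.90 in heterozygous testes and 10.95, 8.13 and 8.03 in wild-type testes, a difference of 4.003 ± 0.79 log2 units (SE, n = 3 arrays each, limma, adjusted p = 0.00428). Prm1, the other protamine, read 12.70, 13.98 and 14.21 in heterozygous testes and 11.82, 8.90 and 8.97 in wild-type testes, a difference of 3.73 ± 0.82 (adjusted p = 0.00676). In both genes the gap between heterozygous testis 1 and wild-type testis 1 was below 1 log2 unit, and testes 2 and 3 of the 2 genotypes stood far apart. Tnp2, a transition protein, read 11.66, 13.34 and 13.55 in heterozygous testes and 11.03, 7.98 and 8.002 in wild-type testes (3.84 ± 0.86, adjusted p = 0.00736). Tnp1, the main transition protein, read 12.29, 13.70 and 14.19 in heterozygous testes and 11.94, 9.37 and 9.28 in wild-type testes (3.20 ± 0.74, adjusted p = 0.00865). None of these 4 genes overlapped between the genotypes. With the poly-A control mean as a covariate the Prm2 difference was 4.08 and that of Tnp1 3.16, at adjusted p = 0.0891 and 0.138.

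**Figure D2:**
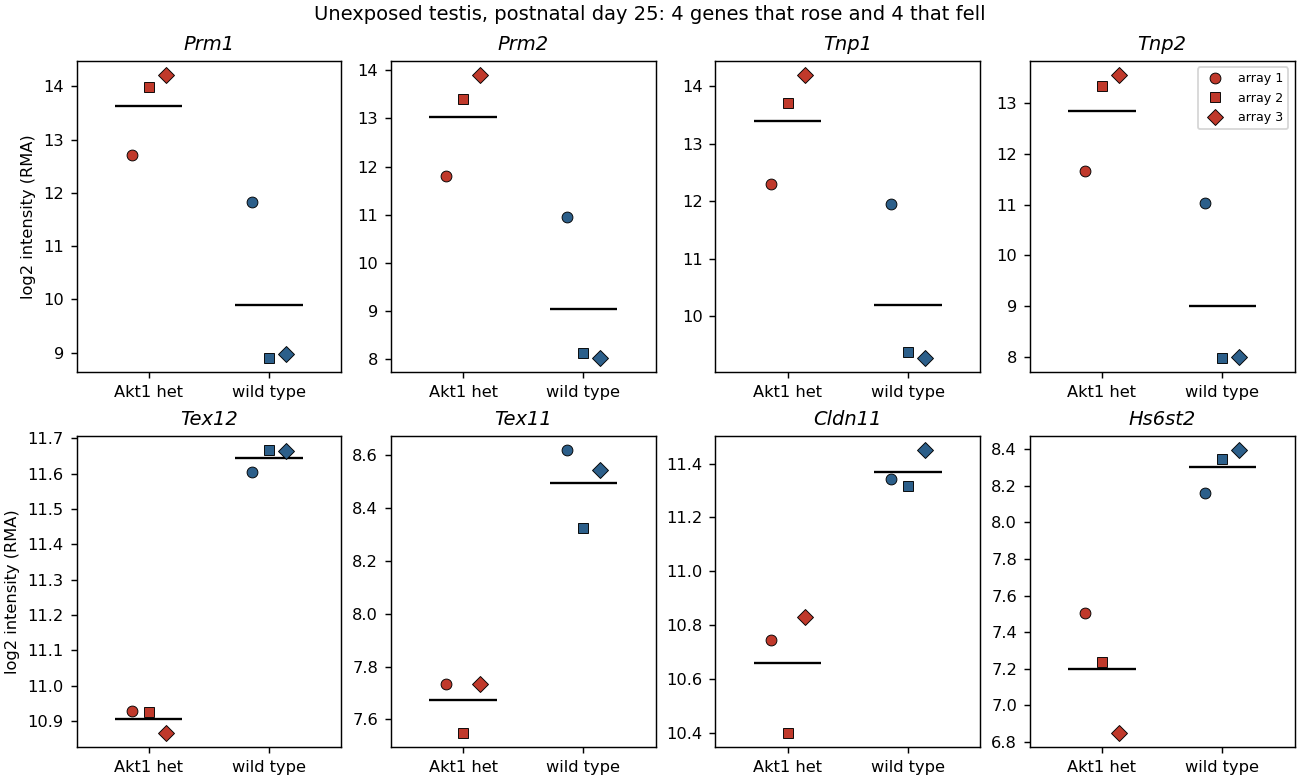
Log2 intensity (vertical axes, RMA) in heterozygous testes (left, red) and wild-type testes (right, blue) for 4 genes that rose and 4 that fell. Points are arrays 1 (circle), 2 (square) and 3 (diamond) and bars are group means. Testis 1 of each genotype lies toward the other in the 4 upper panels, whereas in the lower panels, such as Tex12, every heterozygous array lies well below every wild-type array.

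The other elongating spermatid genes followed with smaller differences. H1f7, a linker histone of spermatids, rose by 2.40 ± 0.46 (adjusted p = 0.00385), and Hils1, a linker histone-like protein, by 1.57 ± 0.45 (adjusted p = 0.0234). Spem1, needed for shedding of the spermatid's cytoplasm, read 8.48, 10.10 and 10.20 in heterozygous testes and 8.32, 6.95 and 7.01 in wild-type testes (2.17 ± 0.42, adjusted p = 0.00423). Prm3, a gene of the protamine cluster, rose by 1.59 ± 0.37, and Spata3, a spermatogenesis-associated gene, by 2.25 ± 0.48. Among the 5 that did not pass, Smcp, which encodes a protein of the sperm mitochondrial sheath, differed by 1.55 ± 0.57 (adjusted p = 0.0639) and Odf1, an outer dense fibre protein, by 1.43 ± 0.53 (adjusted p = 0.0653).

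Promoters of raised elongating spermatid genes are shown because many hold a variant of the cyclic AMP response element, the sequence type bound by the spermatid activator CREM. RefSeq promoters of build GRCm38.p6, from 250 bases before to 50 after each annotated start, were searched on both strands for TGACNTCA. That motif includes the full palindrome TGACGTCA. A gene with several promoters counted when any of them matched. Akap4 and Gsg1 have 2 promoters each, and only the one shown holds a match. Windows of 50 bases around a match follow, 5′ to 3′ on the strand of the gene, with every match in capitals; the Gsg1 window holds a second match, 22 before the start. They lie at chr16:10796859-10796908 (Prm1, minus strand, first base of the match 64 before the start), chr1:73015965-73016014 (Tnp1, minus, 94 before), chr1:86021873-86021922 (Spata3, plus, 51 before), chrX:7067459-7067508 (Akap4, plus, 35 before), chr16:10790946-10790995 (Prm3, minus, 60 before) and chr6:135254343-135254392 (Gsg1, minus, 35 before).
Prm1: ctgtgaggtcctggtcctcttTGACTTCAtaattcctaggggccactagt
Tnp1: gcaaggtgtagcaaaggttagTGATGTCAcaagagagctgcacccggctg
Spata3: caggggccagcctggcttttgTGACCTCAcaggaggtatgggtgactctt
Akap4: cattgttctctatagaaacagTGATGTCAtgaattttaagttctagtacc
Prm3: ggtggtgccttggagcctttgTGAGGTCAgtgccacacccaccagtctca
Gsg1: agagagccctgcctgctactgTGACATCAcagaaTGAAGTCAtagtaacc

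TGACNTCA occurred in 226 of 1065 raised genes with a RefSeq promoter (21.2%), in 113 of 1932 reduced genes (5.85%) and in 839 of 10035 genes that did not pass (8.36%), beside 10.02% of all 27025 genes in the promoter table. Within the last 100 bases before the start the shares were 16.6%, 3.62% and 4.88%. The full palindrome TGACGTCA was about as frequent in raised genes (3.57%) as in reduced genes (2.85%) and in those that did not pass (3.06%). Its first 5 letters, TGACG, were also searched and went the other way. They occurred in 27.2% of raised genes, 36.5% of reduced genes and 31.0% of those that did not pass. Of 21 elongating spermatid genes with a promoter 10 held TGACNTCA and 4 held TGACG. Those 10 include Smcp and Pgam2, which did not pass, and every window shown above comes from a gene with a match. Prm2, the largest rise, and Tnp2 had no match to TGACNTCA in the stretch searched. These matches describe letters and not binding. Crem itself read 11.64, 11.96 and 12.05 in heterozygous testes and 11.49, 11.51 and 11.36 in wild-type testes, a difference of 0.43 ± 0.22 that did not pass (adjusted p = 0.167).

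Round spermatid genes rose in 16 of 31 tested members, with a median of 1.08 log2 units, while 14 did not pass and 1 fell. Over all genes tested 8.32% rose and 14.3% fell. Tssk6, a kinase of spermatids, read 8.86, 10.49 and 10.57 in heterozygous testes and 8.28, 6.47 and 6.60 in wild-type testes (2.86 ± 0.49, adjusted p = 0.00305). Spata25 rose by 1.83 ± 0.33, Izumo1, the sperm protein that binds the egg's receptor, by 1.27 ± 0.28, and Catsper1, a subunit of the sperm calcium channel, by 1.08 ± 0.27. Tex101, a germ cell surface glycoprotein, was the member that fell: it read 12.62, 12.53 and 12.35 in heterozygous testes and 13.02, 12.95 and 13.03 in wild-type testes (-0.50 ± 0.09, adjusted p = 0.00311). Acr, the acrosomal protease, did not pass, at 12.04, 12.29 and 12.14 in heterozygous testes and 11.89, 11.90 and 11.72 in wild-type testes (0.32 ± 0.25, adjusted p = 0.395). The count of raised members was 9 without heterozygous testis 2, 10 without heterozygous testis 3, 9 without wild-type testis 3 and 0 with the poly-A covariate.

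Tail and energy genes of spermatids mostly lay above 0, with smaller medians than the 2 spermatid lists. Of 30 tested sperm tail and axoneme genes 5 rose and none fell, beside 8.32% of all genes higher and 14.3% lower. In this list 29 values lay above 0, with a median of 0.30. The 5 were Akap4 (1.65 ± 0.43) and Akap3 (1.26 ± 0.35), scaffolds of the fibrous sheath and also members of the elongating list, with the outer dense fibre gene Odf3 (1.46 ± 0.33), the sheath gene Ropn1 (1.39 ± 0.37) and Spata6 (0.70 ± 0.18), which builds the neck of the sperm. Of 15 germ cell glycolysis genes 3 rose and 1 fell, 13 lay above 0 and the median was 0.30. Gapdhs, the sperm form of the glycolytic enzyme, rose by 1.55 ± 0.38, Hk1, a hexokinase, read 12.21, 12.79 and 12.66 in heterozygous testes and 11.63, 11.59 and 11.34 in wild-type testes (1.03 ± 0.19, adjusted p = 0.0037), and Spata18, a mitochondrial quality gene, rose by 1.88 ± 0.32. Dld, the dehydrogenase subunit shared by all cells, fell by 0.44 on the log2 scale.

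Other genes among the 12 largest non-overlapping rises shared the same array pattern. 1700016C15Rik read 8.26, 10.20 and 10.69 in heterozygous testes and 7.79, 5.10 and 4.89 in wild-type testes (3.79 ± 0.79, adjusted p = 0.00537). Fam71b rose by 3.74 ± 0.73, 1700015G11Rik by 3.56 ± 0.76 and Prss52, a serine protease, by 3.46 ± 0.63. Oxct2a, a ketone body enzyme of spermatids, read 8.38, 9.80 and 10.33 in heterozygous testes and 7.51, 5.77 and 5.31 in wild-type testes (3.31 ± 0.57, adjusted p = 0.00301). Actrt3, an actin-related protein, rose by 3.21 ± 0.55, Cst13, a cystatin, by 3.11 ± 0.64 and Calr3, a calreticulin of the testis, by 2.98 ± 0.58. In each of these 8 genes testis 1 was the lowest heterozygous and the highest wild-type array.

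Earlier germ cell genes did not rise as a group, and part of them fell. Of 25 early meiotic genes 9 fell and 1 rose, with a median of -0.27, beside 14.3% of all genes lower and 8.32% higher. Tex12, a central element protein of the synaptonemal complex, read 10.93, 10.92 and 10.87 in heterozygous testes and 11.60, 11.67 and 11.66 in wild-type testes (-0.74 ± 0.08, adjusted p = 0.00105). This gap was many times the spread within either genotype, and Tex12 was 1 of the 13 genes that passed with the poly-A covariate. Tex11, an X-linked recombination factor, read 7.73, 7.55 and 7.74 in heterozygous testes and 8.62, 8.33 and 8.54 in wild-type testes (-0.82 ± 0.10, adjusted p = 0.00108). Hormad1, an axis protein, fell by 0.67 on the log2 scale, Ythdc2, an RNA helicase of meiotic entry, by 0.62, and the synaptonemal complex genes Sycp3 and Sycp1 by 0.43 and 0.41. Tex15, a recombination gene, was the member that rose (0.22 ± 0.07, adjusted p = 0.0381). Without heterozygous testis 2 the count of reduced members was 5, and without wild-type testis 3 it was 6. With the poly-A covariate it was 1, Tex12, and the median was -0.15.

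Of 27 pachytene genes 1 rose (Calr3, above), 1 fell and 25 did not pass, with a median of 0.12. Ccnb1ip1, a crossover factor, was the one that fell (-0.59 ± 0.09, adjusted p = 0.00229). Among spermatogonial genes 2 of 19 undifferentiated members rose and 2 fell (median -0.13). The values of that list ran from -0.64 to 0.54, and its members named below do not include those that rose. The pachytene and spermatogonial counts stand beside 8.32% of all genes higher and 14.3% lower. Id4, a stem cell marker, read 12.05, 11.96 and 11.98 in heterozygous testes and 12.52, 12.55 and 12.46 in wild-type testes (-0.51 ± 0.11, adjusted p = 0.00641), and Lin28a, an RNA-binding protein, fell by 0.64 on the log2 scale. Zbtb16, another stem cell marker, did not pass (-0.29 ± 0.17, adjusted p = 0.238). Of 17 differentiating spermatogonial genes 4 fell and none rose (median -0.24): the cyclin Ccnd1 (-0.65 ± 0.11), the RNA-binding protein Dazl (-0.44 ± 0.09), the transcription factor Dmrt1 (-0.58 ± 0.13), also a Sertoli gene, and the homeobox gene Rhox13 (-0.69 ± 0.17). The medians of the germ cell lists thus ran from -0.27 for early meiosis through 0.12 for pachytene and 1.08 for round spermatids to 1.62 for elongating spermatids.

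**Figure D3:**
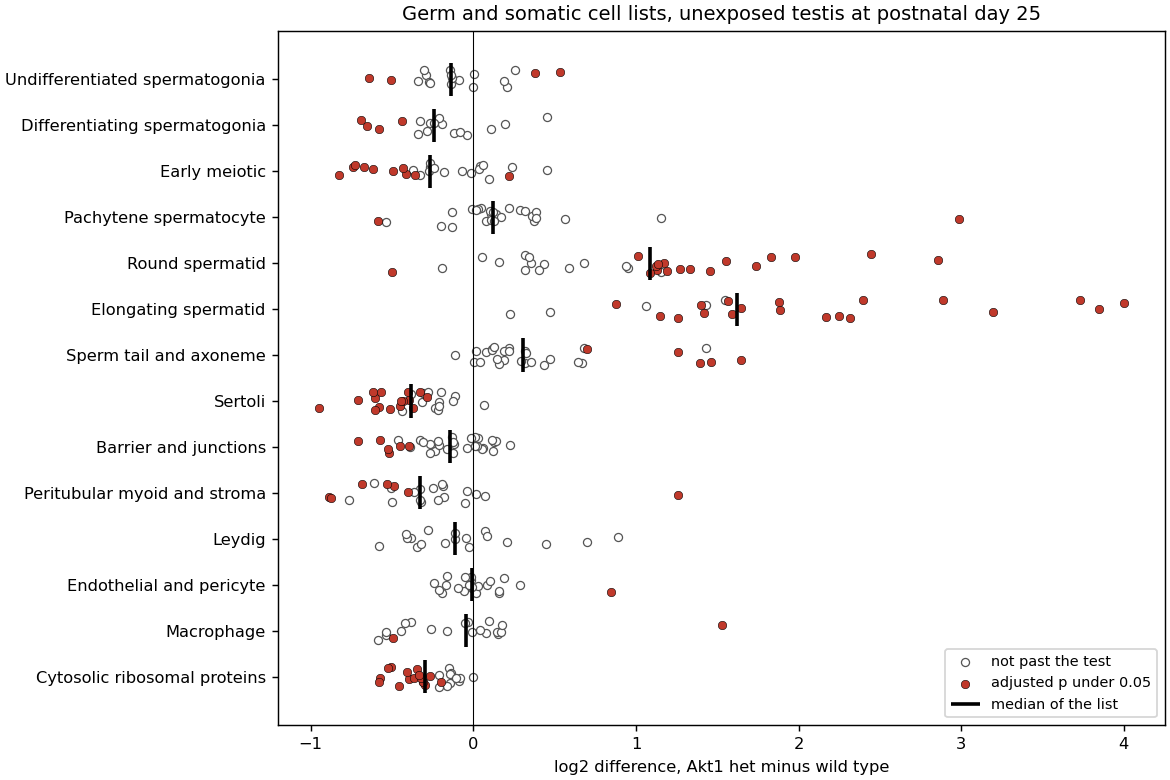
Each point is a tested member of a list, placed on the horizontal axis by its log2 difference, Akt1 heterozygous minus wild type. Red points had an adjusted p under 0.05, open points did not, and the black bar is the median of the list. The round and elongating spermatid lists reach medians of 1.08 and 1.62, and the Sertoli, early meiotic and ribosomal lists lie mostly below 0.

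Sertoli cell genes were reduced. Of 29 tested members 16 fell, none rose and 28 lay below 0, with a median of -0.38, beside 14.3% of all genes that fell. Cldn11, the claudin of the Sertoli cell tight junction, read 10.74, 10.40 and 10.83 in heterozygous testes and 11.34, 11.32 and 11.45 in wild-type testes (-0.71 ± 0.13, adjusted p = 0.00311). Kitl, the ligand for the germ cell receptor Kit, read 9.81, 9.29 and 9.81 in heterozygous testes and 10.12, 10.23 and 10.38 in wild-type testes (-0.60 ± 0.14, adjusted p = 0.00862). Inhbb, an inhibin subunit, fell by 0.60 on the log2 scale, Gstm6, a glutathione transferase, by 0.62, Aard by 0.44, the transcription factor Sox9 by 0.40 and the secreted protein Clu by 0.37. In each of these the heterozygous arrays lay below the wild-type arrays, without overlap. The count was 7 without heterozygous testis 2, 8 without heterozygous testis 3, 8 without wild-type testis 1, 5 without wild-type testis 3 and 0 with the poly-A covariate, where the median was -0.32.

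Barrier and junction genes changed little as a list: 6 of 34 fell, none rose, and the median was -0.15. Over all genes 14.3% fell and 8.32% rose. Besides Cldn11 the 6 included Gja1, the main gap junction protein between Sertoli and germ cells. It read 10.92, 10.66 and 10.84 in heterozygous testes and 11.23, 11.24 and 11.51 in wild-type testes (-0.52 ± 0.10, adjusted p = 0.00449). Of 24 peritubular and stromal genes 6 fell and 1 rose (median -0.33). Tcf21, a transcription factor of stromal progenitors, read 9.22, 8.97 and 8.79 in heterozygous testes and 9.76, 9.78 and 10.08 in wild-type testes (-0.88 ± 0.14, adjusted p = 0.00265). Myl9, a smooth muscle myosin light chain, fell by 0.53 on the log2 scale and Col4a1, a basement membrane collagen, by 0.68, while Acta2, smooth muscle actin, did not pass (-0.32 ± 0.15, adjusted p = 0.126). The member that rose was Actg2, an enteric smooth muscle actin, at 9.26, 10.29 and 10.34 in heterozygous testes and 9.11, 8.53 and 8.47 in wild-type testes (1.26 ± 0.24, adjusted p = 0.0037), with testis 1 of each genotype nearest to the other as in the spermatid genes.

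None of 18 Leydig cell genes passed, and their median was -0.11. Star, which carries cholesterol into mitochondria, read 8.88, 8.26 and 9.02 in heterozygous testes and 8.09, 7.86 and 8.13 in wild-type testes (0.70 ± 0.32, adjusted p = 0.133). Cyp17a1, an androgen-making enzyme, read 12.004, 11.29 and 12.30 in heterozygous testes and 12.06, 10.99 and 11.92 in wild-type testes, with overlapping groups (0.21 ± 0.80, adjusted p = 0.882). Hsd3b1, another steroid enzyme, differed by -0.41 ± 0.17 (adjusted p = 0.104). Of 22 endothelial and pericyte genes only Vwf, a clotting factor, passed (0.85 ± 0.16, adjusted p = 0.00401). Of 20 macrophage genes 1 rose and 1 fell (median -0.04). Aif1, a calcium-binding protein of macrophages, read 9.91, 10.91 and 10.88 in heterozygous testes and 9.61, 8.82 and 8.67 in wild-type testes (1.53 ± 0.34, adjusted p = 0.00667). In Aif1 too, testis 1 of each genotype lay nearest to the other, as in the spermatid genes. Fcgr3, an antibody receptor, fell by 0.50 on the log2 scale, and Cd68 did not pass (-0.59 ± 0.28, adjusted p = 0.138). No lymphocyte gene of 14 passed, and 1 of 8 blood genes and 1 of 15 epididymal and fat genes rose. These counts stand beside 8.32% of all genes higher and 14.3% lower.

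The 12 largest non-overlapping falls were more modest than the rises and of varied function. Hs6st2, a sulfotransferase of heparan sulfate, read 7.51, 7.24 and 6.85 in heterozygous testes and 8.16, 8.35 and 8.39 in wild-type testes (-1.10 ± 0.19, adjusted p = 0.00291). Uxs1, which makes the xylose donor for the same class of sugar chains, read 8.66, 8.38 and 8.82 in heterozygous testes and 9.57, 9.41 and 9.84 in wild-type testes (-0.99 ± 0.14, adjusted p = 0.00162). Ptn, a secreted factor that binds heparan sulfate, fell by 1.03 on the log2 scale and Nrp1, a receptor for semaphorins and vascular growth factor, by 0.97. Serpinh1, the collagen chaperone, read 8.80, 8.43 and 8.20 in heterozygous testes and 9.34, 9.55 and 9.74 in wild-type testes (-1.06 ± 0.22, adjusted p = 0.00523). U2af1, a subunit of the splicing factor that reads the end of introns, read 10.41, 10.39 and 10.43 in heterozygous testes and 11.42, 11.23 and 11.43 in wild-type testes (-0.95 ± 0.11, adjusted p = 0.00105), a gap far wider than the spread in either group. The others were the transcription factor Sp3 (-1.05 ± 0.16), the calcineurin-like protein Chp2 (-0.99 ± 0.19), the cohesin acetyltransferase Esco2 (-0.98 ± 0.11), the Sertoli transcription factor Sox8 (-0.95 ± 0.31), the interferon-induced gene Ifi27l2a (-0.95 ± 0.30) and Ubxn2b, an adaptor of the p97 ATPase (-0.94 ± 0.11).

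Genes that all cells use were among the reduced ones. The list counts here stand beside 14.3% of all genes lower and 8.32% higher. Of 27 cytosolic ribosomal protein genes 15 fell and none rose, all 27 lay below 0 and the median was -0.29. Rps27l read 12.14, 12.19 and 12.28 in heterozygous testes and 12.78, 12.73 and 12.67 in wild-type testes (-0.52 ± 0.09, adjusted p = 0.0028). Rpl22 and Rpl19, of the large subunit, fell by 0.41 and 0.40 on the log2 scale and Rps10, of the small subunit, by 0.36. The count was 8 without heterozygous testis 2, 7 without wild-type testis 3 and 0 with the poly-A covariate. Of 32 respiratory chain genes 8 fell and none rose (median -0.14), led by Ndufa1, a complex I subunit (-0.58 ± 0.07, adjusted p = 0.00111). Of 27 genes of the unfolded protein response and oxidative stress 8 fell and none rose (median -0.15), among them the endoplasmic reticulum proteins Pdia3 (-0.68 ± 0.09) and Sdf2l1 (-0.78 ± 0.14). Of 26 cyclins and their inhibitors 6 fell and 2 rose, and Ccne2, the cyclin of entry into DNA synthesis, read 9.67, 9.12 and 9.49 in heterozygous testes and 10.31, 10.30 and 10.37 in wild-type testes (-0.90 ± 0.14, adjusted p = 0.00213). The heat shock protein gene Hspa8 fell by 0.60 on the log2 scale.

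Calls in the metabolic lists stand beside 8.32% of all genes higher and 14.3% lower. Of 26 lipid metabolism genes 5 rose and 2 fell (median -0.04). Agpat2, an enzyme of phospholipid and triglyceride synthesis, read 7.35, 8.73 and 9.05 in heterozygous testes and 7.11, 6.37 and 6.37 in wild-type testes (1.76 ± 0.38, adjusted p = 0.00624), while its relative Agpat1 fell by 0.52 on the log2 scale. Dgat2, the last enzyme of triglyceride synthesis, rose by 1.09 ± 0.21 and the lipase gene Lipe by 0.92 ± 0.17. Agpat2, Dgat2 and Lipe are also expressed in fat, and the fat markers Adipoq and Car3 had their higher readings in heterozygous testes 2 and 3 too. In exposed wild-type testes 1, 2 and 3 Adipoq read 6.94, 7.80 and 9.31, and Agpat2 read 6.75, 6.73 and 6.82. The part of fat in Agpat2, Dgat2 and Lipe was not tested. Of 22 glucose and lactate supply genes 5 fell and 1 rose, and the member that rose was Hk1. Slc16a1, a lactate and pyruvate transporter, fell by 0.57 on the log2 scale and Hk2, a hexokinase, by 0.46. Of 19 retinoic acid genes 4 fell, including the retinol carrier Rbp4 (-0.65 ± 0.09), the esterifying enzyme Lrat (-0.58 ± 0.12) and the binding protein Crabp1 (-0.68 ± 0.18), and 2 rose, including the receptor Rxra (0.68 ± 0.20, adjusted p = 0.0263). Of 22 cholesterol genes 3 fell, a share close to that over all genes, among them Hmgcs1, an early enzyme of synthesis (-0.56 ± 0.11), and the sterol sensor partner Insig1 (-0.56 ± 0.17).

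The brightest probe set of the targeted gene did not pass. The brightest Akt1 probe set, 1416657_at, read 9.45, 9.34 and 9.17 in heterozygous testes and 9.55, 9.38 and 9.51 in wild-type testes, a difference of -0.16 ± 0.08 with overlapping arrays (adjusted p = 0.191). A dimmer one, 1425711_a_at, read 8.75, 8.74 and 8.28 in heterozygous testes and 9.13, 8.92 and 8.93 in wild-type testes. These did not overlap, yet the difference of -0.41 ± 0.17 did not pass when adjusted over all probe sets (adjusted p = 0.108). The same probe set read 8.18, 8.43 and 8.04 in homozygous testes, a difference of -0.78 ± 0.17 from wild type that passed (adjusted p = 0.0117). The other 2 probe sets, 1440950_at and 1442759_at, differed by 0.25 and -0.07 between heterozygous and wild-type testes. Since the deleted stretch is not known here, none of these readings checks the genotype. The brightest probe set of Akt2, the relative, read 10.38, 10.34 and 10.19 in heterozygous testes and 10.30, 10.24 and 10.39 in wild-type testes (-0.01 ± 0.08, adjusted p = 0.958). A dimmer Akt2 probe set, 1421324_a_at, differed by -0.36 ± 0.18 in heterozygous testes and did not pass (limma, adjusted p = 0.187 over all probe sets). In homozygous testes it differed from wild type by -0.83 ± 0.18 and passed (adjusted p = 0.0121), much as Akt1 1425711_a_at did. The dimmest, 1455703_at, differed by 0.01 between heterozygous and wild-type testes.

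**Figure D4:**
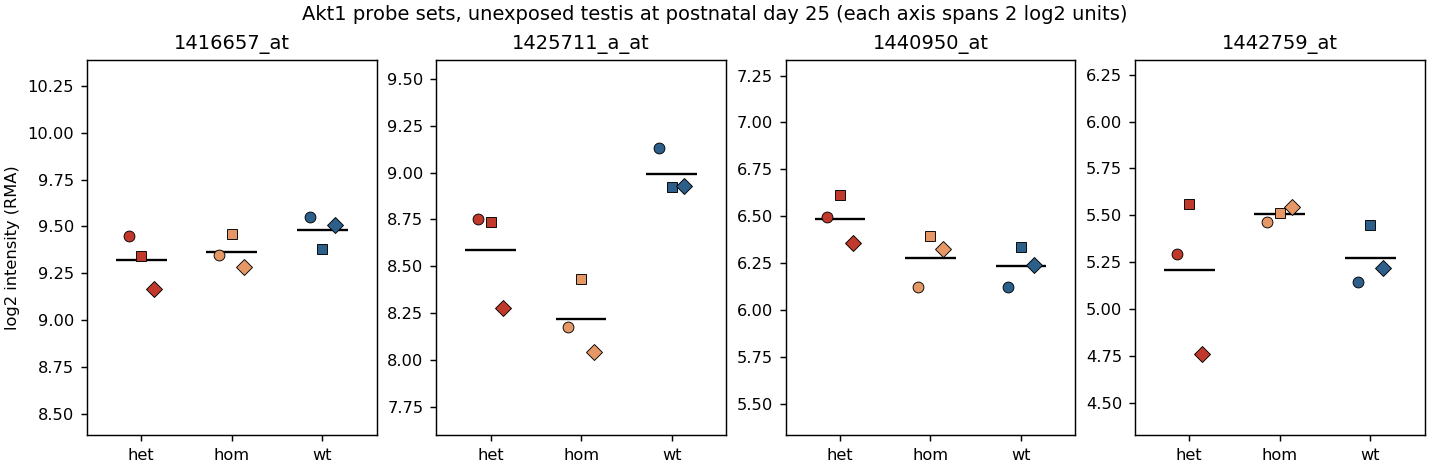
Log2 intensity (RMA) of the 4 Akt1 probe sets in unexposed heterozygous, homozygous and wild-type testes, from left to right in each panel. Points are arrays 1 (circle), 2 (square) and 3 (diamond), bars are means and each axis spans 2 log2 units. In 1425711_a_at all heterozygous and homozygous arrays lie below all wild-type arrays, whereas the brightest probe set, 1416657_at, overlaps.

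Counts in the Akt pathway lists also stand beside 8.32% of all genes higher and 14.3% lower. Of 18 Akt kinases and close regulators 4 fell and 2 rose (median -0.10). Phlpp1, a phosphatase that removes an activating phosphate from Akt, read 9.72, 9.97 and 10.14 in heterozygous testes and 9.19, 9.51 and 9.07 in wild-type testes (0.69 ± 0.18, adjusted p = 0.0165). Mtor, the kinase of both mTOR complexes, rose by 0.27 ± 0.09 (adjusted p = 0.0489), and Rictor, which defines the complex that phosphorylates Akt, fell by 0.42 on the log2 scale. Aktip, an Akt-binding protein, read 8.54, 8.42 and 8.40 in heterozygous testes and 8.94, 8.99 and 8.99 in wild-type testes (-0.52 ± 0.07, adjusted p = 0.00138), and Ppp2ca, the catalytic subunit of a phosphatase that acts on Akt, fell by 0.43. None of 16 PI3K pathway genes passed (median -0.00465). Of 19 genes of the mTORC1 branch 4 fell and none rose, among them Rheb, the GTPase that activates mTORC1 (-0.56 ± 0.12), and its stress inhibitor Ddit4 (-0.57 ± 0.12). Of 20 FoxO factors and target genes 4 fell and 1 rose. The targets Gadd45a and Cat, which FoxO factors are known to activate, fell by 0.63 and 0.52 on the log2 scale. Pck1, on the same list, was the member that rose, by 0.41. Of 18 genes of the GSK3 and Bad branch 5 fell and 1 rose. Gsk3b, a kinase that Akt inhibits, read 9.77, 10.41 and 10.56 in heterozygous testes and 9.62, 9.32 and 9.26 in wild-type testes (0.85 ± 0.19, adjusted p = 0.00764), while the death gene Pmaip1 (-0.81 ± 0.14) and the survival gene Mcl1 (-0.36 ± 0.08) fell. For Gsk3b, testis 1 of each genotype lay nearest to the other, as in the spermatid genes.

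The neighbours of Akt1 on chromosome 12, which can be inherited together with a mutant allele, were read as well. Of 88 protein-coding neighbours (50 on the centromere side and 38 beyond), 76 were tested, 10 rose and 7 fell, with a median of -0.04. Over all 576 tested genes of chromosome 12, 9.20% rose and 12.7% fell. Adam6b, a gene of the sperm surface ADAM family, read 7.85, 8.56 and 8.45 in heterozygous testes and 6.93, 6.49 and 6.03 in wild-type testes (1.80 ± 0.26, adjusted p = 0.00169). 1700001K19Rik rose by 1.52 ± 0.25 and Ankrd9 by 1.16 ± 0.23, whereas Evl, an actin regulator, fell by 0.63 on the log2 scale and Ncapg2, a condensin subunit, by 0.54.

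In PTU-exposed mice of the same age the same genotype comparison gave far fewer calls, although the difference between the exposures did not pass for any gene. In exposed testes 15 genes passed (0.092%), 4 higher (0.0245%) and 11 lower (0.0675%) in heterozygous than in wild-type mice, with 2208 at an unadjusted p under 0.05 (13.5%). After quantile normalization the split turned to 29 higher and 20 lower. None of the genes of the 2 spermatid lists was among the 15. Prm1 read 10.67, 7.74 and 10.62 in exposed heterozygous testes and 9.79, 8.84 and 7.92 in exposed wild-type testes (0.83 ± 0.82, adjusted p = 0.726), with overlapping groups. The genes raised in unexposed heterozygous testes had a median of 0.08 in the exposed comparison, against 0.02 over all genes, and the reduced genes had -0.14. Among the 15, Swi5, a recombination factor, read 12.07, 11.95 and 11.92 in exposed heterozygous testes and 12.47, 12.69 and 12.68 in exposed wild-type testes (-0.63 ± 0.09, adjusted p = 0.0488), beside -0.65 ± 0.09 in unexposed mice. Timm9, a mitochondrial import protein, Lin9, a cell cycle regulator, and the ribosomal gene Rps27l were also lower in both exposures, and Plec, a cytoskeletal linker, was higher in both (0.53 ± 0.09 with PTU and 0.35 ± 0.09 without). The count of 15 was 52 without exposed heterozygous testis 1 and 0 without any 1 of the other 5 exposed arrays. The poly-A control mean was 7.78, 7.48 and 6.88 on the exposed heterozygous arrays. On the exposed wild-type arrays it was 8.48, 8.10 and 8.69, again without overlap. Its part in this comparison cannot be told apart from genotype.

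The interaction of genotype with exposure passed for 0 of 16305 genes in limma, with 2982 at an unadjusted p under 0.05 (18.3%) and the smallest adjusted p at 0.139. For Prm2 it was 3.27 ± 1.11 log2 units (adjusted p = 0.159) and for Tnp1 2.93 ± 1.05 (adjusted p = 0.172). The smallest p belonged to B3gnt8, a glycosyltransferase, which differed by -0.65 ± 0.08 in unexposed mice and by 0.000789 ± 0.08 in exposed mice. Wipf3, an actin regulator expressed in testis, differed by -0.34 ± 0.09 in unexposed and 0.37 ± 0.09 in exposed mice, and Klhl23, Rhob and Zdhhc24 were next. Leaving out unexposed heterozygous testis 1 gave 945 interaction calls, leaving out exposed heterozygous testis 1 gave 1, and array weights gave 2003.

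**Figure D5:**
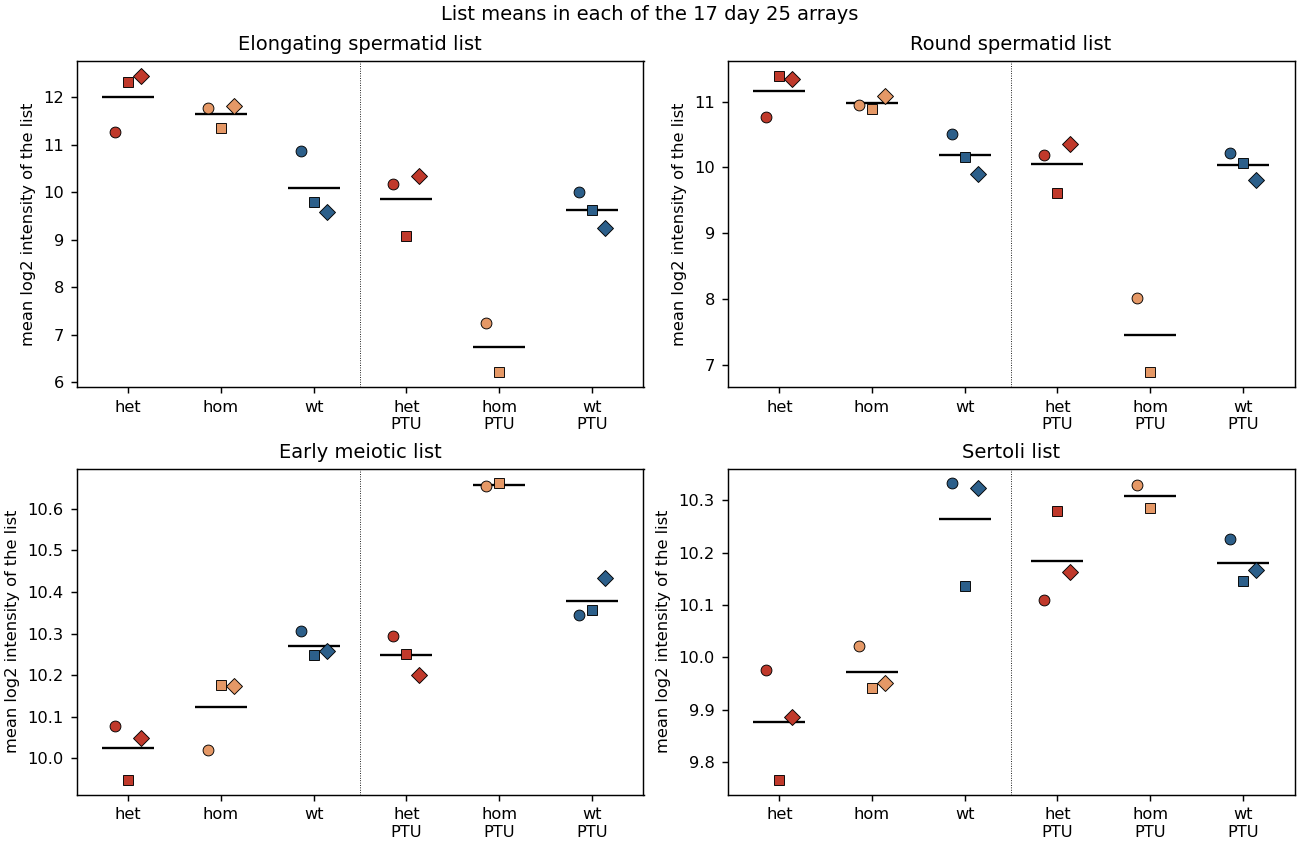
Mean log2 intensity of the tested members of 4 lists in each of the 17 day 25 arrays (circle, square and diamond for arrays 1, 2 and 3), for heterozygous, homozygous and wild-type testes without PTU (left of the dotted line) and with PTU (right). Bars are group means. Without PTU the heterozygous elongating spermatid means of 11.25, 12.31 and 12.44 lie above the wild-type means of 10.87, 9.79 and 9.58, and with PTU the heterozygous and wild-type arrays overlap.

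Homozygous mutant testes without PTU are set beside these values, and they share the 3 wild-type arrays with the heterozygous comparison. In them 2065 genes differed from wild type (12.7%), 872 higher (5.35%) and 1193 lower (7.32%). That balance turned to 1093 higher and 769 lower after quantile normalization, to 1299 and 1200 with the 2 genotypes alone, to 1069 and 1040 with unexposed arrays alone, and to 596 and 458 without wild-type testis 1. The beta-actin control, its 3′ minus its 5′ probe set, read 0.95, 1.02 and 1.31 on the homozygous arrays and 0.56, 0.55 and 0.67 on the wild-type arrays, without overlap, beside 0.67, 0.58 and 0.74 on the heterozygous arrays. The poly-A control mean was 6.13, 6.79 and 7.17 on the homozygous arrays, also below every wild-type array. The homozygous count was 598 with the first of these as a covariate and 130 with the second, and their part in it cannot be told apart from genotype. The elongating spermatid list averaged 11.25, 12.31 and 12.44 in heterozygous testes, 11.77, 11.34 and 11.81 in homozygous testes and 10.87, 9.79 and 9.58 in wild-type testes. Its median difference from wild type was 1.62 in heterozygous and 1.37 in homozygous testes, and that of the Sertoli list was -0.38 and -0.27. Prm2 read 12.78, 11.60 and 12.71 in homozygous testes, a difference of 3.33 ± 0.79 from wild type (adjusted p = 0.0198), beside 4.003 ± 0.79 in heterozygous testes. Swi5 did not follow: at -0.65 ± 0.09 in heterozygous testes, it read 12.40, 12.38 and 12.36 in homozygous testes, a difference of -0.09 ± 0.09 from wild type. The direct comparison of heterozygous with homozygous testes passed for 0 genes in limma, with 1807 at an unadjusted p under 0.05 (11.1%) and 0 to 12 calls under the other settings. For Prm2 that difference was 0.68 ± 0.79 and for Swi5 -0.56 ± 0.09 (adjusted p = 0.0965), so neither a dose effect nor its absence was shown. The homozygous count fell to 84 without wild-type testis 3 and to 315 without homozygous testis 3.

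At day 15 other heterozygous and wild-type mice were read on another array type, so no test joins the ages. There 660 of 16710 genes differed (3.95%), 120 higher (0.718%) and 540 lower (3.23%). With the sample number as a block 1303 genes passed at that age. Of the 1356 genes raised at day 25, 945 were measured at day 15, with a median of 0.05 there beside 0.03 over all genes of that age. Prm2 read 6.58, 6.83 and 6.63 in heterozygous testes and 6.72, 6.54 and 6.69 in wild-type testes at day 15 (0.03 ± 0.09), close together and overlapping. The pachytene list, at a median of 0.12 at day 25, had a median of -0.75 at day 15 with 10 of 26 members lower and none higher, and the sperm tail list stood at 0.30 at day 25 and -0.60 at day 15. The Sertoli list had medians of -0.38 at day 25 and 0.13 at day 15.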

How the data were processed

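RNA of whole testis from single mice was hybridised to Affymetrix arrays, Mouse Genome 430 2.0 at day 25 and MoGene 1.0 ST at day 15 per the labels' design text. The deposited values are log2 intensities made by the authors with RMA, per the submitters' processing notes, with no version stated. They were used as deposited (2.81 to 15.1 at day 25, array medians 6.46 to 6.55). Microarrays give no read depth; the number of arrays limits the precision.

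Of 45101 day 25 probe sets 34958 carry 1 gene symbol, 932 several and 9211 none. The brightest probe set stood for each of 18194 genes, and 16305 genes passed a filter of 4.76 log2 units (the 25th percentile of the values) in 2 or more arrays. The 17 arrays were fitted with a mean for each of 6 groups in limma 3.58.1 (R 4.3.3), eBayes moderated the errors, and Benjamini-Hochberg adjustment ran over all genes tested. A list mean averages the tested members in an array.

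Named genes are Akt1, Akt2, the 12 largest non-overlapping rises and falls, up to 4 members of each list with the smallest p, 10 testis markers, the 5 smallest p of the interaction, of the exposed comparison and of the neighbours of Akt1; other list members are examples chosen after their values were seen. Members and lists were chosen with earlier results of these data known. The fit was tested on simulated data. Sample numbers carry no stated meaning. Residuals of same-numbered heterozygous and wild-type arrays correlated at 0.181 to 0.374 at day 15 and in mixed directions at day 25. Unlike-numbered arrays of the unexposed groups ran from -0.375 to 0.153 at day 15 and from -0.446 to 0.618 at day 25. Whether the numbers mark pairs was not settled. Alternatives were other filters, probe set rules, normalization, weights, covariates, array subsets and each array left out. Promoters came from RefSeq (GRCm38.p6).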

Additional observations from a re-analysis of the deposited data

How the results depend on the processing

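The count of 3680 genes was within 1.5 times under 12 of the 13 settings that count genes and kept all 6 arrays (3177 to 5066); 5152 probe sets passed when each was tested on its own, with 3279 genes called by their brightest; with the poly-A control mean as a covariate it was 13, and leaving out 1 array gave 1433 to 4047. Of 133 named genes 117 lost their call with that covariate and 4 changed sign. The exposed count of 15 became 0 with no filter, with the 2 genotypes alone, with the replicate block and with the poly-A covariate, 63 with the filter at the 50th percentile, 8 probe sets with every probe set tested, 4 with the mean of probe sets, 49 (29 higher, 20 lower) after quantile normalization, 2330 with array weights, 45 with a trend, 160 with the beta-actin covariate, 165 without the exposed homozygous arrays, 1 without arrays high in Spink8 and 0 to 52 with 1 array left out. The interaction count of 0 became 2003 with array weights and 0 to 945 with 1 array left out. The homozygous count of 2065 became 4012 probe sets with every probe set tested, 4871 with array weights, 130 with the poly-A covariate, 598 with the beta-actin covariate, 3388 without the exposed homozygous arrays, 3195 without arrays high in Spink8 and 84 to 1588 with 1 array left out. The heterozygous against homozygous count of 0 became 4 probe sets with every probe set tested, 2 with the mean of probe sets, 1 after quantile normalization, 2 with the poly-A covariate, 12 without the exposed homozygous arrays, 1 without arrays high in Spink8 and 0 to 2 with 1 array left out. At day 15 the count of 660 became 1225 with the 2 genotypes alone, 3673 with array weights, 1303 with the replicate block, 1179 with unexposed arrays alone and 197 to 1308 with 1 array left out. The setting without arrays high in Spink8 was chosen after seeing the data. The causes were not tested.

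The replicate block (sample number) left 3177 calls at day 25. Residuals of same-numbered heterozygous and wild-type arrays correlated there at -0.51, 0.21 and -0.33, and no label makes them pairs. None of the 11 sign changes concerned a called gene. Akt2 was 0.0316 after quantile normalization, 0.0132 with the beta-actin covariate and -0.0449 to 0.0482 with 1 array left out. With the poly-A covariate Acr was -0.28, Crem -0.0139, Zbtb16 0.15 and Cyp17a1 -0.19. Crem was -0.0366 with the mean of probe sets, and Cyp17a1 was -0.13 to 0.49 with 1 array left out. The poly-A and beta-actin covariates were not run at day 15.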

Other observations

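Genes were also grouped by the letters that open their symbols, with groups of at least 10 tested members, a grouping ranked after the values were seen and given here as a description. Raised genes made up 6 of 12 Ttll genes, tubulin ligases that modify the axoneme, and 11 of 22 Spata genes, 8 of 27 Adam genes and 6 of 28 Prss genes, beside 8.32% of all genes. Reduced genes made up 19 of 29 Mrps genes, which encode the small subunit of the mitochondrial ribosome, 6 of 10 Mcm genes, whose products include the replicative helicase, and 6 of 10 Srsf genes, which encode splicing factors, beside 14.3% of all genes. On the X chromosome 153 of 532 tested genes were lower (28.8%) and 44 higher (8.27%), with a median of -0.19, and no other chromosome with over 10 tested genes had a share of lower genes above 18.6%.

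Probe sets of the same gene could go opposite ways. Of 754 genes with at least 2 called probe sets, 62 had calls in both directions. Cdyl, a chromatin reader that also acts on histones of spermatids, had 1 probe set at 10.22, 11.27 and 11.32 in heterozygous testes and 9.81, 8.92 and 8.74 in wild-type testes (1.78 ± 0.31, adjusted p = 0.00362). Another read 7.97, 7.27 and 7.92 in heterozygous testes and 8.53, 8.38 and 8.63 in wild-type testes (-0.80 ± 0.16, adjusted p = 0.00631). Eif4e, the cap-binding translation factor, had probe sets at 2.10 ± 0.39 and -0.35 ± 0.11, and Atl3, a protein of the endoplasmic reticulum, at 1.55 ± 0.28 and -0.61 ± 0.13. The transcripts these probe sets read were not resolved here.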
